A study of Mus musculus with 16 samples.

Results

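Transcripts of 8 genes of cellular iron uptake, storage and sensing were examined in *APOE3* and *APOE4* brain endothelial cells. They were taken by name as *Tfrc*, *Hfe* and *Steap3* for uptake, *Fth1*, *Ftl1* and *Ncoa4* for storage and its turnover, and *Ireb2* and *Aco1* for sensing, and were all found among the 39057 gene rows of the count table. The cells were primary cultures from the cerebral cortex of targeted replacement mice aged 21 to 28 days, in which the human *APOE3* or *APOE4* gene is expressed from the endogenous mouse promoter. Each library came from the brain of a different animal, with 8 libraries per genotype (4 males and 4 females), and all cultures received 8 µg/ml of puromycin, an antibiotic that spares endothelial cells more than other brain cells, with no further treatment. Poly-A RNA was sequenced, and the question was whether the *APOE* genotype changed the transcripts. The replacement is present in every cell that uses this promoter, both groups carry it, and neither group holds mice with the mouse gene alone.

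Cells import iron mainly as transferrin, which binds the transferrin receptor and is carried into endosomes, where iron is released and reduced. Iron that is not used at once is stored in ferritin, and iron regulatory proteins adjust both processes by binding iron-responsive elements, short hairpins in the untranslated regions of messenger RNAs. When iron is scarce, binding in the 5′ untranslated region of a ferritin transcript blocks its translation, and binding in the 3′ untranslated region of the *Tfrc* transcript protects it from decay. Brain endothelial cells are the site where iron from the blood enters the brain.

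None of the 8 transcripts passed the test between genotypes. *Tfrc* had the largest difference, at 54.0 ± 4.22 CPM in *APOE3* and 60.1 ± 5.74 CPM in *APOE4* libraries (mean ± SD of 8 libraries, where CPM are counts scaled for depth and normalized by edgeR), and *Fth1*, among the most abundant transcripts of these cells, was at 5680 ± 428 and 5792 ± 332 CPM. By edgeR's quasi-likelihood test with Benjamini-Hochberg adjustment over all 12481 genes tested, 0 of the 8 had an adjusted p under 0.05, the threshold used throughout for a call, against 12.8% of all genes tested (837 or 6.71% higher and 760 or 6.09% lower in *APOE4*). At an unadjusted p under 0.05 the count was 3 of 8 (*Tfrc*, *Steap3* and *Aco1*, all higher in *APOE4*), against 29% of all genes. DESeq2's Wald test and limma's voom also called 0 of the 8, each with 3 at an unadjusted p under 0.05. The log2 fold changes (*APOE4* against *APOE3*) ran from -0.05 to 0.15, with 6 above and 2 below 0 and a median of 0.08, beside a median near 0 (-0.0002) over all genes tested. In comparison, 10 of 51 tested genes from a wider set of iron genes were called, among them the iron exporter *Slc40a1*, which was lower with a call that 8 of 16 fits without 1 library lost, and the siderophore carrier *Lcn2*, which was higher with a call that all 16 kept.

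Total counts ranged from 14276942 to 16603076 in *APOE3* and from 12717847 to 18624417 in *APOE4* libraries. Human *APOE* had 15504 to 22318 counts in *APOE3* and 7672 to 14722 in *APOE4* libraries, and mouse *Apoe* had 128 to 290 over both. Counts per gene do not tell the human alleles apart. The 17 brain endothelial markers summed to 19092 to 20253 CPM in *APOE3* and 18939 to 20901 CPM in *APOE4* libraries, from *Pecam1*, the highest, to *Mfsd2a*, the lowest at 3.46 and 3.36 CPM. Of these 17 markers 1 was called, *Emcn*, higher in *APOE4*, beside 12.8% of all genes. Markers of red blood cells, which hold much iron, were at 0 in every library for 6 of 8 genes and summed to at most 0.124 CPM. The 11 microglia and macrophage markers summed to 8.05 to 10.6 and 7.05 to 10.4 CPM, with *P2ry12* and *C1qa* at 0 in every library. Fibroblast markers varied widely between libraries, with sums of 12.5 to 60.5 and 8.49 to 77.1 CPM. Neuron markers summed to 10.9 to 15.2 and 13.7 to 18.7 CPM. Sums were at most 4.08 and 4.27 CPM for astrocyte markers and 2.24 and 1.79 CPM for oligodendrocyte markers. Pericyte and smooth muscle markers summed to 188 to 354 and 222 to 339 CPM, and 0 of 6 tested were called, beside 12.8% of all genes. Most of this sum was *Tagln*, the highest, at a mean of 161 and 178 CPM, and *Acta2* at 83.8 and 80.3 CPM. Means were 4.74 and 6.10 CPM for *Pdgfrb* and 7.05 and 7.64 CPM for *Cspg4*. They were 0.278 and 0.394 CPM for *Rgs5*, and lower for *Kcnj8*, *Abcc9* and *Vtn*. The cell cycle list differed most between genotypes, with all 30 genes higher in *APOE4* and 28 of them called, beside 6.71% of all genes called higher. Its score, the mean log2 CPM of the list, was 5.54 ± 0.358 in *APOE3* and 6.15 ± 0.279 in *APOE4* libraries. The paper, from counts of cells and of stained nuclei, reports no difference between genotypes in proliferation or cell number at confluence. The list therefore describes transcripts, and cell division was not measured in these libraries. Because these are bulk samples, less RNA per cell and fewer cells of a kind cannot be told apart in any value below.

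Iron-responsive elements were located in the mouse transcripts of GENCODE release M21 (GRCm38), because they are the feature that links uptake, storage and sensing. The search took the sense strand and asked for an unpaired C, 5 stem bases, the loop CAGTG followed by any base but G, and 5 bases that pair with the stem. It found an element in an untranslated region of 3 of the 8 genes. Among 11 transcripts listed as known to carry such elements, these 3 included, the search matched 6. Its counts are therefore those of this strict pattern and may be incomplete. *Tfrc* had 4 in its 3′ untranslated region on the forward strand of chromosome 16, and each ferritin had 1 in its 5′ untranslated region, *Fth1* on the forward strand of chromosome 19 and *Ftl1* on the reverse strand of chromosome 7. The same pattern occurred in the 5′ untranslated region of 23 of 22527 genes searched (0.102%) and in the 3′ untranslated region of 110 (0.488%). The elements are shown 5′ to 3′ as 30 bases each with the loop in capitals, and that of the exporter *Slc40a1* (reverse strand of chromosome 1, 5′ untranslated region) is added because its transcript differed between genotypes.
Tfrc, chr16:32631218-32631247: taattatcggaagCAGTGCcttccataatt
Tfrc, chr16:32631597-32631626: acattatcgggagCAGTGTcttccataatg
Tfrc, chr16:32631662-32631691: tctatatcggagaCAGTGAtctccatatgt
Tfrc, chr16:32631709-32631738: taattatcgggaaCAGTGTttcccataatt
Fth1, chr19:9982731-9982760: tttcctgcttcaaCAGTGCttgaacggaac
Ftl1, chr7:45459779-45459808: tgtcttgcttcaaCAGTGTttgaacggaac
Slc40a1, chr1:45925465-45925494: ccaacttcagctaCAGTGTtagctaagttt

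Both ferritin elements were alike at 27 of 30 positions and differed by T2G, C5T and C19T, counted from the 5′ end with the base of *Fth1* first, and the last of these is the final base of the loop. The other 5 genes (*Hfe*, *Steap3*, *Ncoa4*, *Ireb2* and *Aco1*) held no match to this pattern. That says only that these letters, within a full 30 bases, are not in their annotated coding transcripts. A match is a description of sequence, and neither binding by iron regulatory proteins nor the iron of the cultures was measured in these data.

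Levels were compared between genes per length of transcript, as CPM per kilobase of the main coding transcript in GENCODE release M21. Ferritin stood far above the rest. *Fth1* was at 5445 to 6804 CPM per kilobase over the 16 libraries and *Ftl1* at 826 to 1067, and these ranges did not overlap. *Aco1* followed at 16.2 to 20.6 CPM per kilobase, above *Tfrc* at 9.32 to 13.7 in every library. The remaining genes were *Steap3* at 8.69 to 12.4, *Hfe* at 6.50 to 9.77, *Ncoa4* at 6.23 to 8.34 and *Ireb2* at 5.76 to 7.25 CPM per kilobase. Each of the last 5 overlapped its neighbour in this order over the libraries, so that *Tfrc* was above *Steap3* in 14 of 16 and *Hfe* above *Ncoa4* in 12 of 16. By CPM, *Fth1* took rank 5 of the 12481 genes tested and *Ftl1* rank 119, whereas the others lay between rank 3109 (*Aco1*) and rank 5829 (*Hfe*).

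Some of these levels rest on sequence that other genes share. Of all stretches of 50 bases, the read length, in the main transcript of *Ftl1*, 90.6% also occurred in transcripts of 17 other annotated genes. Together these took 554 counts over the 16 libraries, against 226190 for *Ftl1*. Of them 2, *Gm10252* and *Gm22133*, overlap *Ftl1* itself on the chromosome, 1 on its strand, and both took 0 counts. For *Ncoa4* the shared part was 43.1%, with 1 gene that took 183 counts against 7557. It was 6.59% for *Fth1* and 0 for *Tfrc*, *Steap3*, *Ireb2* and *Aco1*. For *Hfe* it was 3.32%, but the 48 genes that share it took 807874 counts, of which *Vwf* took 666736, against 7414 for *Hfe*. How reads with more than 1 match, or within overlapping genes, were counted is not given in the sources used here. The absolute levels of *Ftl1* and *Ncoa4*, and to a degree not measured here that of *Hfe*, are therefore uncertain.

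**Figure D1:**
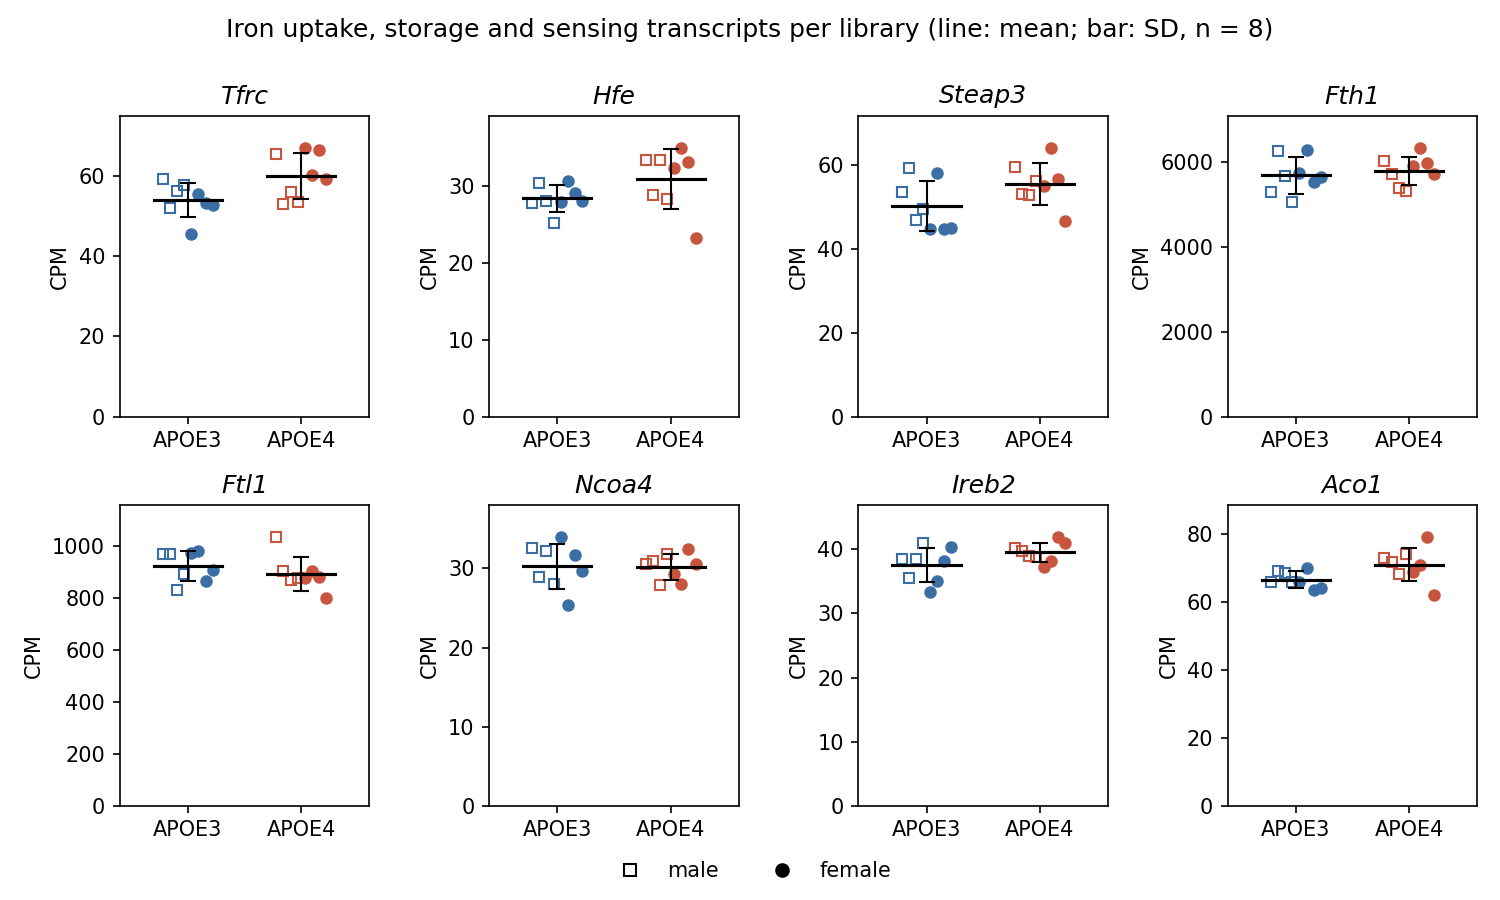
Level of each of the 8 transcripts in CPM (vertical axes, from 0), with 1 point per library, *APOE3* in blue and *APOE4* in red, open squares for males and filled circles for females. Lines and bars are the mean and SD of 8 libraries, and the genotypes overlap for every gene.

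*Tfrc*, the transferrin receptor, lies on chromosome 16 from 32608920 to 32632794 (ENSMUSG00000022797.15). Its level was 45.6, 54.4 and 59.2 CPM (lowest, median and highest library) in *APOE3* and 52.9, 59.8 and 67.0 CPM in *APOE4* cultures, and 6 of 8 *APOE4* libraries were above the *APOE3* median. The ranges overlapped between 52.9 and 59.2 CPM. *Tfrc* had a log2 fold change of 0.15 (SE 0.0585, 95% interval 0.03 to 0.28), and the adjusted p by edgeR's quasi-likelihood test was 0.0865 (0.0161 before adjustment). Without *APOE4* replicate 36, the lowest *APOE4* library, it was called (log2 fold change 0.18, adjusted p = 0.0469 by edgeR), and in the other 15 fits that left out 1 library it was not. Correction for GC content and length gave a log2 fold change of 0.10 (edgeR adjusted p = 0.278). The cell cycle list moved with genotype, and once its score was added to the edgeR fit the log2 fold change of *Tfrc* was 0.01 (SE 0.0698, adjusted p = 0.990). In that fit 0 of the 12481 genes were called by edgeR, with 901 at an unadjusted p under 0.05.

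The genotypes were further apart for *Tfrc* in females than in males, although the difference between sexes was not called. In females the 4 *APOE4* libraries were at 59.2 to 67.0 CPM, all above the 4 *APOE3* libraries at 45.6 to 55.5. Among all genes tested, 4.59% had no overlap in females with *APOE4* higher. In males the levels were 52.9 to 65.4 CPM in *APOE4* and 51.9 to 59.2 CPM in *APOE3* libraries, which overlapped. In an edgeR fit of genotype and sex, *APOE4* females differed from *APOE3* females by 0.29 on the log2 scale (SE 0.0748, edgeR adjusted p = 0.0706) and males by 0.02 (SE 0.0750). Their difference was 0.27 (95% interval 0.05 to 0.50, edgeR adjusted p = 1.00), with 0.0185 before adjustment. Over all genes, 0 were called for such a difference by edgeR and 2.76% had an unadjusted p under 0.05. For the other 7 transcripts the difference between sexes ran from -0.11 (*Ftl1*) to 0.12 (*Steap3*), none with an unadjusted p under 0.05. Averaged over genotypes, 0 of the 8 differed between females and males by edgeR, also at an unadjusted p under 0.05, against 0.0721% and 4.26% of all genes.

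*Hfe* encodes a protein related to MHC class I that binds the transferrin receptor, and its loss causes hereditary iron overload (chromosome 13 from 23702034 to 23710854, ENSMUSG00000006611.14). It had the largest spread among *APOE4* cultures, with 25.2, 28.1 and 30.7 CPM (lowest, median and highest) in *APOE3* and 23.2, 32.7 and 34.9 CPM in *APOE4* libraries. *APOE4* replicate 43 was the lowest of all 16 libraries, whereas 7 of 8 *APOE4* libraries lay above the *APOE3* median. Its log2 fold change was 0.13 (SE 0.0689, edgeR adjusted p = 0.239), and without that library it was 0.18 and was called (edgeR adjusted p = 0.0357).

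*Steap3* encodes the endosomal reductase that converts iron released from transferrin to the form that is transported (chromosome 1 from 120190757 to 120272705, ENSMUSG00000026389.16). Levels were 44.8, 48.2 and 59.3 CPM in *APOE3* and 46.7, 55.6 and 64.0 CPM in *APOE4* libraries. The ranges overlapped over most of their width, and 7 of 8 *APOE4* libraries were above the *APOE3* median. The log2 fold change was 0.14 (SE 0.0683), with an edgeR p of 0.0484 and an adjusted p of 0.169.

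*Fth1*, the ferritin heavy chain that oxidizes iron for storage, lies on chromosome 19 from 9980598 to 9985098 (ENSMUSG00000024661.6). Its level was 5058, 5653 and 6284 CPM in *APOE3* and 5319, 5810 and 6321 CPM in *APOE4* libraries. The ranges overlapped over most of their width. For *Fth1* the log2 fold change was 0.03 (SE 0.0448, edgeR adjusted p = 0.726), and its 95% interval ran from -0.07 to 0.12. *Ftl1*, the ferritin light chain that helps the iron core to form, lies on chromosome 7 from 45457944 to 45459884 (ENSMUSG00000050708.16). It was at 831, 938 and 982 CPM in *APOE3* and at 800, 879 and 1032 CPM in *APOE4* libraries. Only *APOE4* replicate 35, the highest of all 16 libraries, was above the *APOE3* median. For *Ftl1* the log2 fold change was -0.05 (SE 0.0460, 95% interval -0.15 to 0.05, edgeR adjusted p = 0.508).

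Together the ferritin transcripts took 0.594% to 0.725% of the counts of a library in *APOE3* and 0.616% to 0.717% in *APOE4*. The ratio of *Fth1* to *Ftl1* counts, which does not depend on scaling between libraries, was 6.16 ± 0.457 in *APOE3* and 6.51 ± 0.476 in *APOE4* (two-sided exact permutation test over 12870 assignments, p = 0.155, adjusted p = 0.233 over 3 ratios). The ratio holds the uncertainty in the level of *Ftl1* given above. *Tfrc* was at 8.23 ± 1.03 counts per 1000 ferritin counts in *APOE3* and 8.99 ± 0.647 in *APOE4*, and 7 of 8 *APOE4* libraries were above the *APOE3* median (exact permutation test, p = 0.0946, adjusted p = 0.233). The ratio of uptake to storage transcripts was thus not called.

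*Ncoa4* encodes the receptor that carries ferritin to lysosomes, where its iron is released (chromosome 14 from 32159865 to 32179855, ENSMUSG00000056234.14). It was at 25.3, 30.7 and 33.9 CPM in *APOE3* and 27.9, 30.5 and 32.5 CPM in *APOE4* libraries. All *APOE4* libraries fell within the *APOE3* range. The log2 fold change was -0.01 (SE 0.0558), the 95% interval was -0.12 to 0.11 and the edgeR adjusted p was 0.965.

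The sensors gave small differences as well. *Ireb2* encodes iron regulatory protein 2, which is degraded when iron is plentiful (chromosome 9 from 54863789 to 54912530, ENSMUSG00000032293.8). Levels were 33.3, 38.3 and 40.9 CPM in *APOE3* and 37.3, 39.3 and 41.8 CPM in *APOE4* libraries, and the *APOE4* libraries lay in the upper part of the *APOE3* range or just above it. *Ireb2* had a log2 fold change of 0.07 (SE 0.0445, edgeR adjusted p = 0.288), which was 0.02 with correction for GC content and length (edgeR adjusted p = 0.817). *Aco1* encodes iron regulatory protein 1, which is a cytosolic aconitase while it holds an iron-sulfur cluster (chromosome 4 from 40143081 to 40198338, ENSMUSG00000028405.9). It was at 63.4, 66.0 and 70.1 CPM in *APOE3* and 62.1, 71.4 and 79.0 CPM in *APOE4* libraries. The *APOE3* median was exceeded by 7 of 8 *APOE4* libraries, and *APOE4* replicate 43 was below every other library. Its log2 fold change was 0.09 (SE 0.0408, edgeR adjusted p = 0.136), with 0.0342 before adjustment, and without that library it was 0.12 and was called (edgeR adjusted p = 0.0345). The ratio of *Ireb2* to *Aco1* counts was 0.564 ± 0.0528 in *APOE3* and 0.558 ± 0.0436 in *APOE4* (exact permutation test, p = 0.824, adjusted p = 0.824).

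**Figure D2:**
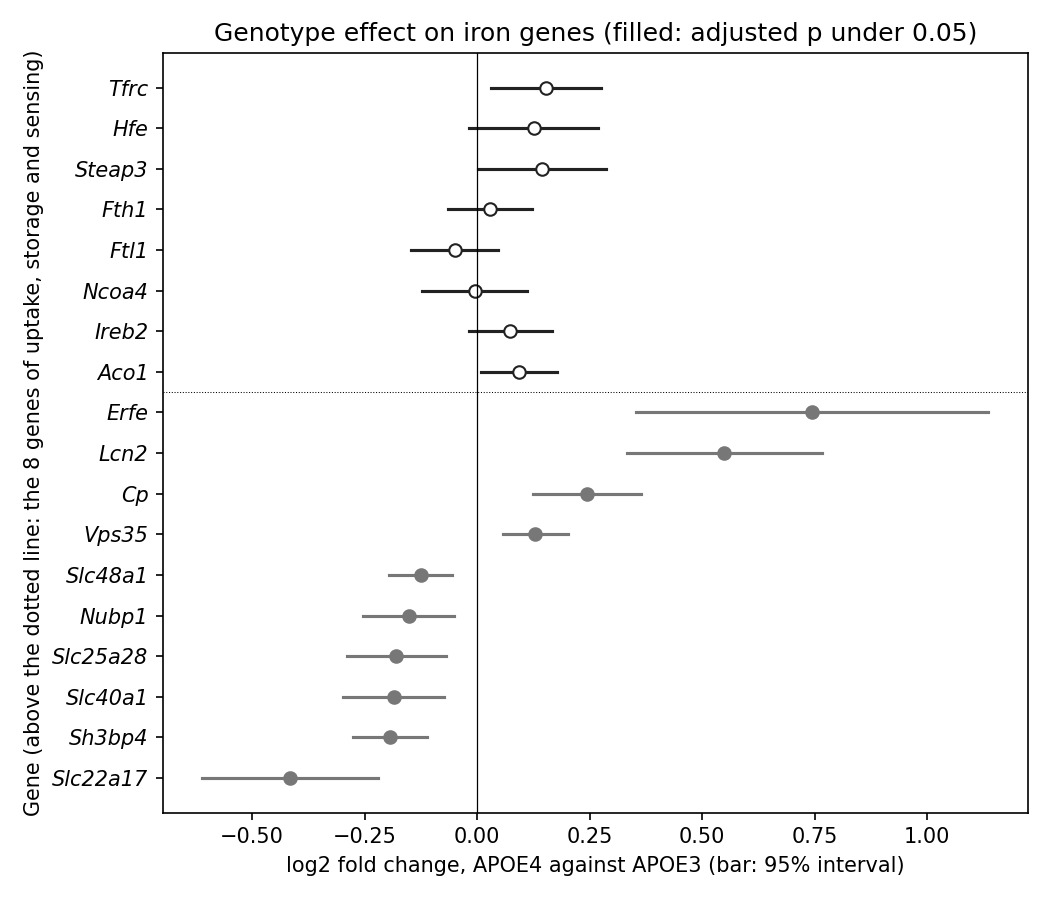
Log2 fold change of *APOE4* against *APOE3* (horizontal axis) with its 95% interval for the 8 genes, above the dotted line, and for the 10 other iron genes that were called. Open points did not pass the adjusted threshold, and the 8 genes lie between -0.05 and 0.15. The called genes, drawn because they passed it, reach from -0.42 to 0.74. Some of them, such as *Slc48a1* and *Vps35*, have a smaller change in size than *Tfrc*.

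The depth behind these values was 351 to 608 counts per library for *Hfe*, the gene with the fewest, and 75656 to 109870 for *Fth1*. Counting error alone would give a coefficient of variation of 4.65% for *Hfe*, 3.35% for *Tfrc* and 0.334% for *Fth1*. The coefficients measured were larger, at 6.05% in *APOE3* and 12.6% in *APOE4* libraries for *Hfe*, 7.81% and 9.55% for *Tfrc*, and 7.54% and 5.74% for *Fth1*, except that for *Ireb2* in *APOE4* (3.78%), which was below its counting error of 4.08%. *Aco1* and *Ireb2* were the least variable, with a mean over genotypes of 5.26% and 5.46%, and 17.2% and 19.0% of all genes tested had a lower value. *Steap3* was the most variable at 10.6%, and 58.3% of genes had a lower value.

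Whether the 8 genes varied together from culture to culture was examined over the 16 libraries. Among the 28 pairs of the 8 genes, *Steap3* and *Aco1* had the highest Pearson's r, 0.707 (permutation p = 0.0019, adjusted p = 0.0532), with Spearman's rho of 0.759 (permutation p = 0.0009, adjusted p = 0.0258) and r of 0.736 without the 2 libraries farthest from the median of *Steap3*. Within genotypes r was 0.740 in *APOE3* and 0.643 in *APOE4*. *Hfe* had r of 0.678 with *Steap3* (adjusted permutation p = 0.0552) and of 0.634 with *Aco1* (adjusted permutation p = 0.0797). Within *APOE3* these were 0.479 and 0.447, and within *APOE4* they were 0.811 and 0.579. *APOE4* replicate 43 was the lowest *APOE4* library for *Hfe*, *Steap3* and *Aco1*. The ferritin chains had r of 0.322 with each other, and the lowest r was -0.451, between *Ftl1* and *Ireb2*. In all, 0 of 28 pairs were called by r (6 at an unadjusted p under 0.05) and 1 by rho. The same share among pairs of all genes tested was not computed, so these counts have no background to be read against.

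**Figure D3:**
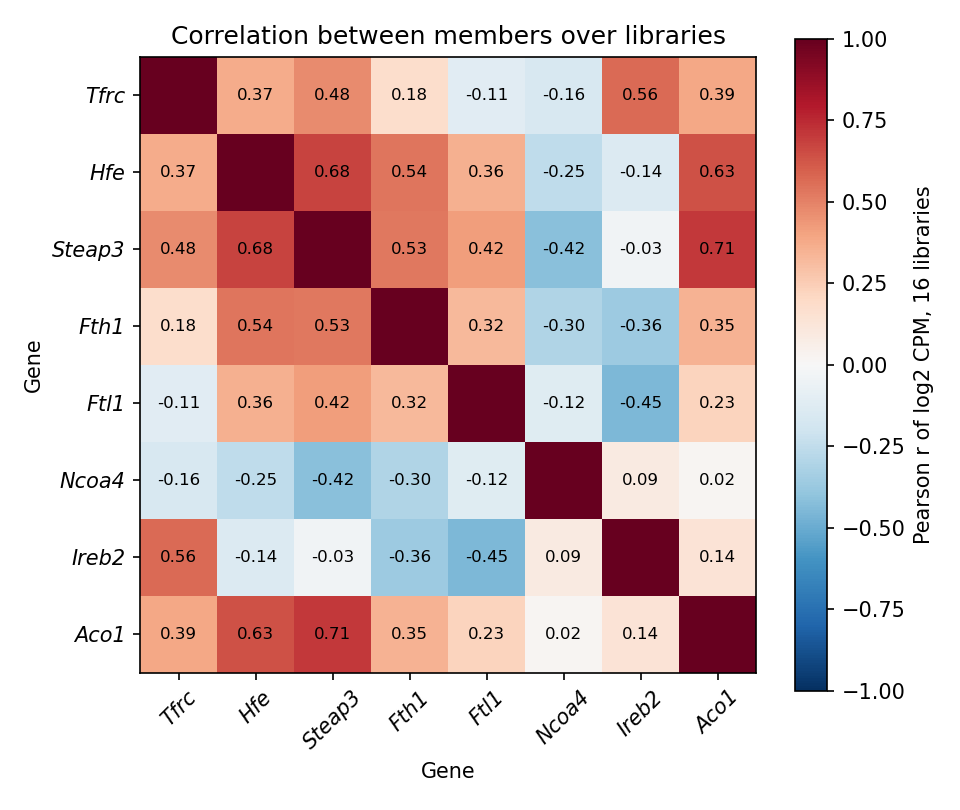
Pearson's r of log2 CPM over 16 libraries for each pair of the 8 genes, on a colour scale from -1 to 1. *Hfe*, *Steap3* and *Aco1* form the block of high values (0.63 to 0.71), and *Ncoa4* has values between -0.42 and 0.09 with the others.

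Among all genes tested, those with the most similar profile over the 16 libraries are given as a description, since the highest r of so many is high by selection. *Tfrc* was closest to *Ssr3*, a subunit of the translocon-associated complex of the endoplasmic reticulum (r = 0.919), and *Fth1* to *Dnlz* (r = 0.919). *Aco1* was closest to *Depdc5* (r = 0.902), *Ireb2* to *Zfp9* (r = 0.891), *Steap3* to *Ecm1* (r = 0.887) and *Hfe* to *Myrf* (r = 0.870). *Ftl1* was closest to *Elp2* (r = 0.895), and *Ncoa4* had the weakest best match, *Gfm1* (r = 0.772).

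The other genes of iron handling were taken from 6 lists, which together name 63 further genes. Of these, 51 had enough counts to be tested and 10 were called (4 higher and 6 lower in *APOE4*), which is 19.6% beside 12.8% of all genes. Their median log2 fold change was -0.02. The 12 that were not tested included hepcidin, *Hamp*, at 0 to 3 counts per library.

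Among 16 genes for other routes of uptake, 10 were tested, of which 1 was higher and 2 were lower. *Lcn2*, lipocalin 2, which binds iron-carrying siderophores and is also made in inflammation, rose from 392 ± 69.1 to 574 ± 90.1 CPM (a log2 difference of 0.55, SE 0.104, edgeR adjusted p = 0.00614), and all 8 *APOE4* libraries were above the *APOE3* median. *Slc22a17*, a lipocalin 2 receptor, fell from 11.2 ± 1.53 to 8.42 ± 1.05 CPM (log2 fold change -0.42, edgeR adjusted p = 0.0100). *Slc48a1*, which exports heme from endosomes, fell from 139 ± 6.62 to 128 ± 5.03 CPM (log2 fold change -0.13, edgeR adjusted p = 0.0215), a call lost without *APOE4* replicate 41 (edgeR adjusted p = 0.0524). *Steap4*, a relative of *Steap3*, had the largest log2 fold change of the list at 0.94, at 0.508 ± 0.273 and 0.964 ± 0.537 CPM (edgeR adjusted p = 0.103). *Slc11a2*, the divalent metal transporter that moves iron out of endosomes, was at 39.9 ± 2.05 and 38.2 ± 2.21 CPM and was not called.

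Of the 13 genes of iron export and the hepcidin axis, 9 were tested, of which 2 were higher and 1 was lower. *Slc40a1*, ferroportin, the iron exporter whose element is shown above, fell from 68.7 ± 5.72 to 60.4 ± 4.94 CPM (a log2 difference of -0.19, SE 0.0543, edgeR adjusted p = 0.0305). The ranges, 61.7 to 79.0 and 55.4 to 69.3 CPM, overlapped, and with 1 library left out at a time it stayed called 8 times of 16 (edgeR adjusted p up to 0.0674). *Cp*, ceruloplasmin, which oxidizes iron as it leaves the cell, rose from 405 ± 41.0 to 479 ± 36.7 CPM (log2 fold change 0.24, edgeR adjusted p = 0.0121). *Erfe*, erythroferrone, which lowers hepcidin, rose from 1.46 ± 0.424 to 2.45 ± 0.494 CPM (log2 fold change 0.74, edgeR adjusted p = 0.0159) on 13 to 51 counts per library. *Bmp6*, an endothelial signal for hepcidin in the liver, was at 506 ± 41.9 and 469 ± 60.0 CPM and was not called.

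**Figure D4:**
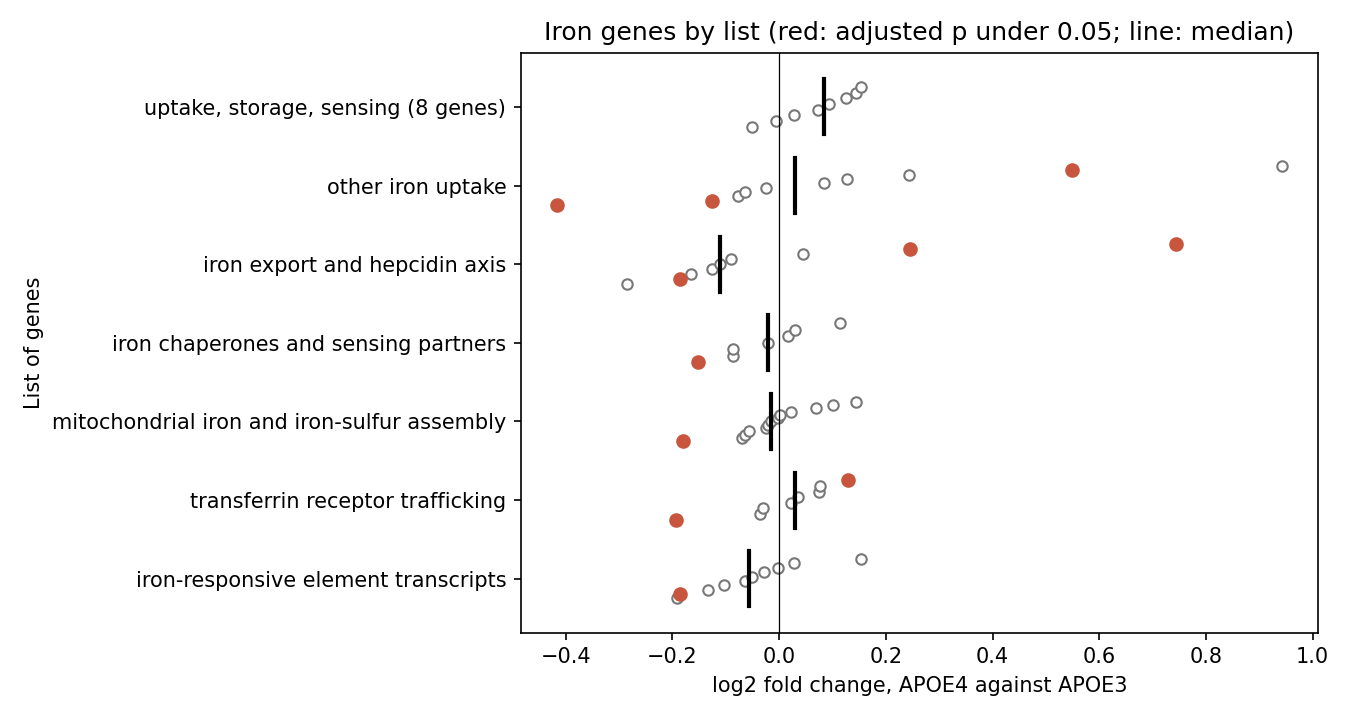
Log2 fold change of *APOE4* against *APOE3* (horizontal axis) for each tested gene of the 8 and of the 6 other iron lists, with called genes in red and the median of each list as a line, and a gene on more than 1 list is drawn in each. Each of the 6 lists holds at least 1 called gene, which for the iron-responsive element transcripts is *Slc40a1* of the export list again. The 8 genes of uptake, storage and sensing hold none, beside 12.8% called over all genes tested. A difference between the lists was not tested.

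Among iron chaperones and partners of sensing, 1 of 7 genes tested was called. *Nubp1*, a scaffold for cytosolic iron-sulfur clusters, fell from 24.0 ± 1.38 to 21.6 ± 1.18 CPM (log2 fold change -0.15, edgeR adjusted p = 0.0445), a call kept 5 times of 16 when 1 library was left out (edgeR adjusted p up to 0.0989) and lost without a filter on low counts (edgeR adjusted p = 0.0885). *Fbxl5*, the iron-binding ligase subunit that marks iron regulatory protein 2 for degradation, was just outside the threshold at 68.5 ± 2.83 and 74.2 ± 4.12 CPM (log2 fold change 0.11, edgeR adjusted p = 0.0502). The iron chaperones *Pcbp1* and *Pcbp2* had log2 fold changes of -0.02 and 0.02. Of 13 mitochondrial genes, *Slc25a28*, mitoferrin 2, fell from 24.8 ± 2.08 to 21.9 ± 0.783 CPM (log2 fold change -0.18, edgeR adjusted p = 0.0314), a call kept in 8 of 16 such fits (adjusted p up to 0.0664). It was also lost without a filter on low counts (edgeR adjusted p = 0.0530) and with limma's voom (adjusted p = 0.0583). The other 12 mitochondrial genes were not called.

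For trafficking of the transferrin receptor, 1 of 8 genes was higher and 1 lower. *Vps35*, a retromer subunit that recycles receptors, rose from 84.6 ± 4.42 to 92.5 ± 3.35 CPM (log2 fold change 0.13, edgeR adjusted p = 0.0214). With correction for GC content and length its log2 fold change was 0.06 and it was not called (edgeR adjusted p = 0.288), nor was it without *APOE4* replicate 41 (edgeR adjusted p = 0.0503). *Sh3bp4*, which controls the internalization of the receptor, fell from 248.8 to 217.5 CPM on average (log2 fold change -0.19, SE 0.0392, edgeR adjusted p = 0.00705). Of 11 transcripts known for iron-responsive elements, 10 were tested and *Slc40a1* was the single call. The largest log2 fold change of that list was that of *Cdc14a* (-0.19, edgeR adjusted p = 0.143). Among genes of the list whose element is shown above, log2 fold changes were -0.19 for *Slc40a1*, 0.03 for *Fth1*, -0.05 for *Ftl1* and 0.15 for *Tfrc*. Once the cell cycle score was added to the fit, none of the 10 calls among the iron genes was kept by edgeR. In that fit 5 of the 51 had an unadjusted p under 0.05, beside 901 of all 12481 genes tested. All 10 log2 fold changes kept their sign. *Nubp1* (-0.17), *Vps35* (0.12), *Slc25a28* (-0.14), *Slc48a1* (-0.10) and *Cp* (0.19) stayed within 1.5 times of the values above. The others were smaller, at 0.30 for *Lcn2*, 0.20 for *Erfe*, -0.11 for *Slc22a17*, -0.09 for *Slc40a1* and -0.09 for *Sh3bp4*. The part of the cell cycle genes in these differences was not tested.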

How the data were processed

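RNA sequencing of 16 cultures was analysed from the deposited table of counts, whole numbers of reads per gene without normalization, which the authors made against mouse genome mm10 and human hg38. Per the labels, STAR and featureCounts were used. Their versions, the annotation release and the strand setting are not given in the sources used here. Libraries were made from 100 ng of RNA with 17 PCR cycles and no stated molecular identifiers, so counting error is a lower limit of the technical error. Of the table's columns 0 were unmapped, and 38872 of 39056 mouse rows matched GENCODE release M21 (GRCm38), the source of symbols, positions and sequences. In R 4.3.3 with edgeR 4.0.16, filterByExpr kept 12481 genes, which were normalized by TMM, fitted with genotype alone and tested with the quasi-likelihood F test. P-values were adjusted by Benjamini and Hochberg's method over all genes tested. The SE is the absolute log2 fold change over the square root of F. CPM are scaled to the normalized library size, and log2 CPM used a prior count of 2. Effects by sex came from an edgeR fit of 4 groups of 4 libraries. Ratios were tested by two-sided exact permutation and correlations by 100000 permutations over 28 pairs. Fits were tested on simulated counts. Python 3.11.15 and matplotlib 3.10.9 were used for the figures.

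The genes and lists were chosen with earlier results of these data known. Named genes are the 8 members, each called gene of the iron lists, the gene with the largest change in each list, and genes of similar profile. Other genes were named for their role after their values had been seen. Alternatives were DESeq2 size factors, no filter, a minimum of 10 counts in each library, the cell cycle score or sex as a covariate, DESeq2 1.42.0, limma 3.58.1 voom with quality weights, correction for GC content and length, and each library left out. P-values measure the spread between cultures of different animals. Of the iron lists, 1 gene is not reported here.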

Additional observations from a re-analysis of the deposited data

Results flagged for a closer look

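Of 22 groups of 8 libraries tested for a value that stands apart (the 8 genes and 3 ratios in each genotype), 2 were past Dixon's limit at the 95% level, and chance alone marks about 1 in 20. *APOE4* replicate 35 was above the other *APOE4* libraries for *Ftl1*, at 1032 CPM. *APOE4* replicate 43 was above them for the ratio of *Ireb2* to *Aco1* counts, at 0.660.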

How the results depend on the processing

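With the cell cycle score added to the fit, 0 genes were called over all and 0 of the other iron genes, and log2 fold changes turned to -0.0054 for *Hfe*, -0.0197 for *Steap3*, -0.0280 for *Fth1* and 0.0458 for *Ncoa4*. The score itself differed between genotypes. Leaving out 1 library at a time gave 846 to 2127 genes called over all, 5 to 12 of the other iron genes, and 0 to 2 of the 8 genes (*Tfrc* without *APOE4* replicate 36, *Hfe* and *Aco1* without *APOE4* replicate 43). The lowest counts over all genes were 853 without *APOE3* replicate 30, 952 without *APOE3* replicate 33 and 846 without *APOE4* replicate 41. In these fits the log2 fold change ran from 0.12 to 0.18 for *Tfrc*, 0.10 to 0.18 for *Hfe*, 0.0689 to 0.118 for *Aco1*, and -0.0377 to 0.0196 for *Ncoa4*, whose sign turned in 7 of 16 fits. The log2 difference of the ratio of *Ireb2* to *Aco1* ran from -0.0487 to 0.0096. Correlations of deviations from the mean of each genotype and sex gave 3 pairs called, against 0. The permutations behind these 3 calls did not allow for the group means removed, so their p-values may be too small. The other alternatives called 0 of the 8 genes, with 1290 (no filter) to 1958 (DESeq2) genes called over all, and correction for GC content and length gave 728 higher of 1464, with log2 fold changes of 0.0974 for *Tfrc*, 0.0193 for *Ireb2* and 0.0082 for *Fth1*. The causes were not tested. No paired analysis was possible because the genotypes share no replicate numbers. Only transcripts were measured, and the 95% intervals of all 8 genes reached past 0.1 in size on the log2 scale.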
